A study of Pyrus calleryana with 9 samples.

Results

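Histones are the proteins around which plant DNA is wound, and the data described here are the transcript levels of histone genes in seeds of callery pear (Pyrus calleryana) before and during moist chilling. Genes were taken where their Swissprot protein name contains histone H1, H2A, H2B, H3 or H4, which holds for 112 of the 59552 genes of the table. Of these, 82 are histones by their first protein name. They comprise 8 H1, 20 H2A, 4 H2A.Z, 15 H2B, 9 H3, 9 H3.3, 2 centromeric H3 and 15 H4 genes. The remaining 30 are named after histone-modifying enzymes or their relatives and were matched through an alternative name that holds a histone name. They are described apart from the histones.

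The seeds came from ripe fruits of callery pear trees in 1 garden. They were dried, imbibed in water for 24 h and were then kept on wet filter paper at 4 °C. RNA-seq libraries were made from whole seeds after 0 d (imbibed, not chilled), 20 d and 50 d of this cold stratification. Each stage has 3 biological replicates, A, B and C, and each replicate is a bulk of seeds. Drying and imbibition were shared by all groups, and no imbibed seeds kept warm for the same days entered the comparison, so days of chilling and days after imbibition cannot be told apart. The reads of P. calleryana were mapped to the genome of a related pear, P. betuleafolia, whose coordinates and gene names are used below.

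A nucleosome holds a pair of each of the core histones H2A, H2B, H3 and H4, and the linker histone H1 binds the DNA that enters and leaves it. Canonical core histones are made mainly while DNA is being copied. Replacement variants such as H3.3 and H2A.Z are put into chromatin outside replication as well. In Arabidopsis, H3.3 is associated with transcribed genes, H2A.Z sits at the start of genes and in the bodies of responsive genes, and the centromeric form of H3 marks the centromere. A dry or dormant seed holds few dividing cells, and replication resumes around germination.

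The 9 libraries held 13893019 to 16228340 counts each, and histone genes took 0.395% to 1.13% of them. Levels are given as the FPKM that the authors deposited, in which fragments are scaled by gene length and library size, so that levels can be compared between genes. A change is the log2 ratio of the later stage over the earlier one, fitted on the counts with edgeR's quasi-likelihood test. A gene was called where the Benjamini-Hochberg adjusted p over all 28339 tested genes was at most 0.01, the log2 change was at least 1 in size, and either of both stages had a mean FPKM of 1 or more. The 3 comparisons share libraries, so their calls are not independent. Of the 82 histones, 70 had enough counts to be tested. Of the 12 that did not, 5 had no count in any library and the other 7 reached at most 1.23 FPKM as a stage mean. A histone domain was annotated in 71 of the 82, and 2 of the 11 without one carry a retrotransposon domain instead.

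Libraries 20 d B and 50 d C stood apart from the other replicates of their stage, and this bears on histones because histone genes are short. Their median model length was 698.5 bases, against 1348 for all genes with counts. Across all tested genes, which are not independent replicates, the deviation of a library from the mean of all libraries correlated with log gene length with r = −0.41 in 20 d B, against 0.45 and 0.41 in 20 d A and C. The corresponding values were −0.23 in 50 d C, 0.32 and 0.26 in 50 d A and B, and −0.29, −0.10 and −0.26 in the 0 d libraries. Short genes were thus relatively higher at 0 d, in 20 d B and in 50 d C. Library 20 d B was the highest of its stage for 57 of the 70 tested histones (81.4%) against 44.9% of all tested genes, and 50 d C for 63 of them (90%) against 43.4%. The correlation of whole libraries was 0.976 between 20 d A and C and 0.882 and 0.892 between 20 d B and these. How much of each gene's change came from this length trend was not tested. Fits with the trend removed, over all libraries or within stages, are among the alternatives. Neither of them lost the call of a histone. The counts of calls against 0 d in each histone class and list are also given without both libraries. That alternative was added once the data had been seen.

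The markers of the labelled tissue were present. The 25 genes for 11S and 7S globulins and oleosins, proteins stored in seeds, summed to between 15197 and 28577 FPKM at 0 d, 14920 and 18883 at 20 d, and 2569 and 5987 at 50 d. The 39 genes for chlorophyll a-b binding proteins and the small subunit of Rubisco, which mark greening tissue, summed to 171 to 269 FPKM at 0 d, 139 to 195 at 20 d and 532 to 692 at 50 d. In whole seeds, fewer cells of a type and less RNA per cell cannot be told apart.

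Taken as a whole, histone transcripts were most abundant before chilling. The summed FPKM of the 82 histones was 17491, 11621 and 16324 in the 0 d libraries. It was 5140, 11209 and 6024 at 20 d, and 4516, 6275 and 10535 at 50 d. All 3 libraries of 0 d lay above all 6 chilled libraries, with 20 d B close behind the lowest of them. The means were 15145 ± 3108 (SD, n = 3) at 0 d, 7458 ± 3279 at 20 d and 7109 ± 3095 at 50 d. Genes in the length range of the middle 50% of histones also had their highest mean sum at 0 d, 269531 ± 54356 FPKM, against 197683 ± 80981 at 20 d and 167541 ± 74087 at 50 d, and replicates of both chilled stages overlapped with those of 0 d.

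**Figure D1:**
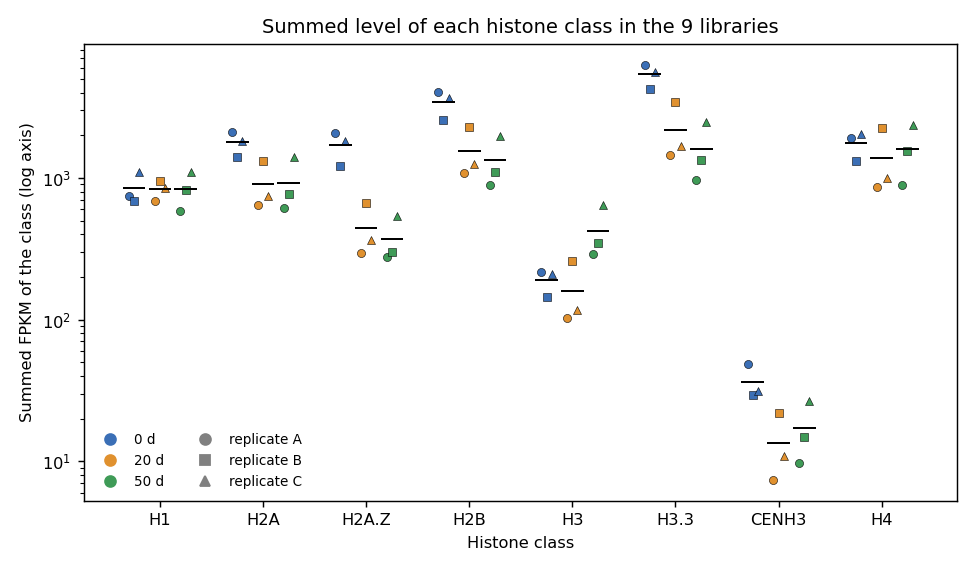
Summed FPKM of each histone class on a log axis in the 9 libraries. Colours are the stages, symbols the replicates and black bars the stage means. H3.3, H2A.Z, H2B and centromeric H3 (CENH3) stood lower in every chilled library than in every 0 d library. H2A did so only narrowly, with 1398.22 in 50 d C against 1398.34 in 0 d B. H3 was highest at 50 d, and H1 stayed within 586 to 1105 FPKM throughout.

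The class sums differed in how they varied over the stages. The mean summed H3.3 level was 5384 ± 1047 FPKM at 0 d, 2190 ± 1090 after 20 d and 1595 ± 777 after 50 d. The H2A.Z sum was 1702 ± 442, 442 ± 196 and 371 ± 144 FPKM at the same stages, and the H2B sum 3449 ± 772, 1549 ± 658 and 1330 ± 586 FPKM. H2A summed to 1783 ± 362, 899 ± 359 and 927 ± 416 FPKM. In contrast, the H3 sum was 190 ± 40.2 FPKM at 0 d, 159 ± 86.3 after 20 d and 425 ± 189 after 50 d. H4 (1757 ± 387, 1374 ± 766 and 1605 ± 741 FPKM) and H1 (846 ± 224, 832 ± 136 and 839 ± 259 FPKM) had overlapping replicates at all stages.

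From 0 d to 20 d, 5 of the 70 tested histones (7.14%) were called, all lower, where 12.4% of all tested genes were called, 7.88% higher and 4.52% lower. The median log2 change of the tested histones was −0.85, against 0.15 for all tested genes. The 3590 genes of histone-like length had a median of −0.33. No replicate of 1 stage lay within the range of the other for 31 histones that were lower and 2 that were higher, where this held for 21.3% of all tested genes as lower and 20.8% as higher. The count of calls varied with single libraries, as did the share of all tested genes called. The count was 28 without 20 d B and 16 without 50 d C, where 23.7% and 13.7% of all tested genes were called. There were 3 calls without 0 d A or without 0 d C, where 4.47% and 4.21% of all tested genes were called. Without 20 d A or without 20 d C there were 2, where 4.5% and 4.58% of all tested genes were called. With 20 d B and 50 d C both left out, 41 histones were called, 2 higher and 39 lower, where 33.9% of all tested genes were called. With the length trend of all libraries removed, 19 were called, 3 higher and 16 lower, where 19.2% of all tested genes were called.

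From 20 d to 50 d, 6 histones (8.57%) were called, all higher, where 1.66% of all tested genes were called, 1.4% higher and 0.254% lower. The median histone changed by 0.04, against −0.06 over all tested genes. Replicates did not overlap for 13 histones that were higher and 1 that was lower, where this held for 25.6% of all tested genes. A count test of only the 6 libraries of these stages called 0 of 70, and also 0 of all tested genes, with 12 histones higher and 1 lower at an unadjusted p below 0.05. In the fit of all 9 libraries 13 were higher and 2 lower at that p, where 19.0% of all tested genes passed it. DESeq2 called 9 higher, where it called 2.73% of all genes of the table, tested or not. With limma-trend on log2(FPKM + 1) 7 were called higher, where 3.45% of all tested genes were called. Leaving out 1 library gave 2 calls without 20 d A, 1 without 20 d C and 10 without 20 d B. Of all tested genes, these fits called 0.336%, 0.255% and 2.03%. There were 4 calls without 0 d A or without 50 d B, where 0.887% and 0.459% of all tested genes were called. Without both 20 d B and 50 d C, 10 were called higher and 1 lower, where 3.1% of all tested genes were called.

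Over the whole period, from 0 d to 50 d, 24 histones (34.3%) were called, 8 higher and 16 lower, where 26.6% of all tested genes were called, 15.6% higher and the others lower. Replicates did not overlap for 10 histones that were higher and 28 that were lower, against 29.5% and 26.2% of all tested genes. The median log2 change was −0.59 for histones, 0.16 for all tested genes and −0.34 for the genes of histone-like length. These 24 include all 5 genes called from 0 d to 20 d and all 6 called from 20 d to 50 d, and 13 were called in this comparison only. Among the 64 tested histones with a mean of at least 1 FPKM at every stage, 7 were higher and 14 lower. The count of called histones was 13 without 0 d A, 14 without 0 d C or without 50 d B, and 15 without 50 d A. In the same order, these fits called 17.2%, 16.7%, 16.6% and 17.2% of all tested genes. Without both 20 d B and 50 d C, 42 histones were called, 9 higher and 33 lower, where 41.6% of all tested genes were called.

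**Figure D2:**
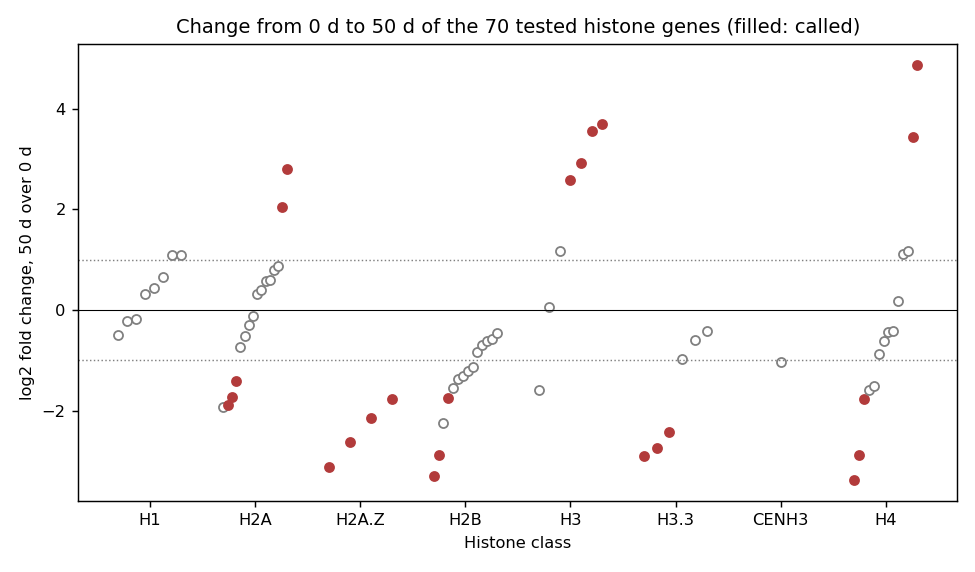
Log2 fold change from 0 d to 50 d of the 70 tested histone genes by class, 1 point per gene. Filled points were called and dotted lines mark a change of 1 in either direction. All 4 H2A.Z genes and the 3 called H3.3 genes lie below 0, the 4 called H3 genes lie above it, and the called H2A and H4 genes lie on both sides.

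The H3 family showed the clearest contrast between classes. Genes named H3.3 were the most abundant histones before chilling. Chr8.g55684 (chromosome 8, 18018333 to 18019242, minus strand) had the highest histone level of 0 d, 3101, 1694 and 2068 FPKM. At 20 d the 3 libraries had 337, 935 and 434 FPKM. The values of 50 d were 198, 263 and 520 FPKM. Its 0 d libraries did not overlap with either chilled stage, and it changed by −2.75 ± 0.50 (log2, SE) from 0 d to 50 d, with an adjusted p of 0.00114. This call was kept in all 23 alternatives. The gene was named after its values were seen.

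Scaffold2.g05322, also named H3.3, had the highest mean level of all histones over the 9 libraries and the highest at 20 d and 50 d. Its level was 1549, 1325 and 2101 FPKM at 0 d, then 744, 1590 and 782 FPKM at 20 d, and 526, 641 and 1275 FPKM at 50 d. The 0 d libraries overlapped with 20 d B but not with 50 d. Its change from 0 d to 50 d was −0.97 ± 0.43 with an adjusted p of 0.0864, and it was not called in any comparison. Chr15.g00793, the third H3.3 gene by level at 0 d, had 1226, 904 and 984 FPKM at 0 d, 174, 494 and 199 at 20 d, and 86.1, 172 and 303 at 50 d. It fell by 2.42 on the log2 scale (SE 0.51, adjusted p 0.00291), a call that was lost with glmTreat, a test against a change of 1, and without 0 d A, 50 d A or 50 d B. Chr3.g18647, a weakly expressed H3.3 gene with 9.67, 4.4 and 10.5 FPKM at 0 d, fell to 0.256, 0.580 and 2.39 FPKM at 50 d. Its change of −2.90 ± 0.76 (adjusted p 0.00917) was lost without any 1 of 7 libraries, the 3 of 0 d, 20 d A and C, and 50 d A and B. The call was also lost with glmTreat and with the replicate block. The other 2 tested H3.3 genes, Chr15.g01827 and Chr15.g01769, changed by −0.42 and −0.59 and were not called. In all, 3 of 6 tested H3.3 genes fell and all 6 fitted changes were below 0. Without 20 d B and 50 d C, 5 of the 6 were called lower at 50 d and 4 at 20 d, where 41.6% and 33.9% of all tested genes were called in either direction.

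Genes named H3.2, the name of a form made with DNA replication in animals, went the other way. The name is that of the closest Swissprot match, plant H3 names differ between species, and no protein sequence was used here to check it. Chr10.g14254 (chromosome 10, 29956551 to 29957458, plus strand) had the highest mean of the H3 genes over the 9 libraries, with 36.6, 23.2 and 48.7 FPKM at 0 d. The 20 d libraries held 62.6, 157 and 68.1 FPKM. Those of 50 d held 139, 235 and 420 FPKM. Each stage lay above the one before except that 50 d A fell below 20 d B. The change from 0 d to 50 d was 2.93 ± 0.51 with an adjusted p of 0.000866, and this call was kept in all 23 alternatives. In the order of histone levels it was the seventh at 50 d.

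The other 3 called H3.2 genes rose only after 20 d by their levels. Chr3.g20677 had 2.75, 1.29 and 2.17 FPKM at 0 d, 0.848, 0.851 and 1.44 at 20 d, and 26.2, 16.8 and 27.1 at 50 d. Chr3.g20653, which together with it spans 197 kb of chromosome 3, had 3.22, 2.67 and 1.35 FPKM at 0 d, 2.54, 1.76 and 0.598 at 20 d, and 33.0, 20.8 and 37.2 at 50 d. Chr5.g06125 had 9.67, 3.34 and 5.25 FPKM at 0 d, 4.67, 5.48 and 6.02 at 20 d, and 25.9, 20.1 and 59.8 at 50 d. In each of the 3 genes the lowest 50 d library lay well above the highest of the 6 earlier libraries. From 20 d to 50 d they changed by 4.44 ± 0.45 (adjusted p 0.000888), 4.17 ± 0.56 (0.00246) and 2.68 ± 0.49 (0.00943). The first of these calls was lost only in the fit of the 2 stages alone, and the second also with the replicate block and without 20 d C. The third was lost without any 1 library other than 20 d B. It was also lost with another scaling of library size (RLE), with glmTreat, with the replicate block and in the fit of the 2 stages alone. Against 0 d they changed by 3.57 ± 0.42 (adjusted p 9.26e-05), 3.70 ± 0.55 (0.000336) and 2.59 ± 0.49 (0.00144), where the last was lost without 0 d C.

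Not every H3 gene rose. Chr9.g47345, named H3-like 3, had 134, 95.2 and 135 FPKM at 0 d and 35.1, 31.0 and 50.8 at 50 d, with a change of −1.58 ± 0.44 and an adjusted p of 0.0128, above the limit. The H3.2 genes Chr11.g09844 and Chr11.g09840, which together span 21.8 kb of chromosome 11, changed by 1.18 ± 0.34 (adjusted p 0.0155) and 0.07 ± 0.53 (adjusted p 0.931) and were not called. Of the 7 tested H3 genes, 4 rose from 0 d to 50 d and none was called lower by edgeR, while at an unadjusted p below 0.05 there were 5 higher and 1 lower, DESeq2 called 5 higher and 1 lower, and limma 4 higher and 1 lower. With 20 d B and 50 d C left out, edgeR called 2 lower at 20 d, 4 higher and 1 lower at 50 d, and 5 higher from 20 d to 50 d. Of all tested genes, that fit called 33.9%, 41.6% and 3.1% in the same order.

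**Figure D3:**
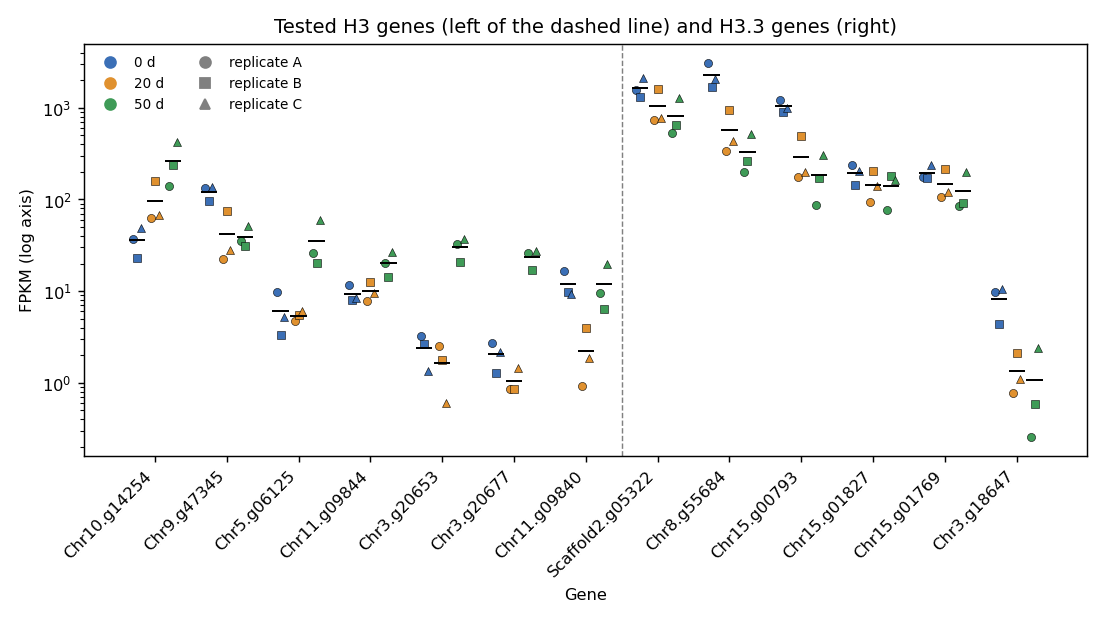
FPKM of the 7 tested H3 genes and the 6 tested H3.3 genes in each library, on a log axis. Colours are the stages, symbols the replicates and black bars the stage means. The 4 called H3.2 genes (Chr10.g14254, Chr5.g06125, Chr3.g20653 and Chr3.g20677) were highest at 50 d, while the H3.3 genes Chr8.g55684, Chr15.g00793 and Chr3.g18647 were highest at 0 d.

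The balance between both kinds of H3 transcript was steadier between replicates than the level of either. H3.3 made up 96.7%, 96.7% and 96.4% of the summed FPKM of H3 and H3.3 at 0 d. Its share was 93.4%, 93.0% and 93.5% at 20 d, and 77.0%, 79.6% and 79.3% at 50 d. The stages did not overlap. The H3 part of these sums includes the H3-like 3 gene Chr9.g47345, which was most of it at 0 d and was lower after chilling. Of the libraries that stood apart in level, 20 d B had the lowest share of its stage and 50 d C lay between the other replicates of its stage. Averaged over 3 replicates the share was 96.6 ± 0.195% at 0 d, 93.3 ± 0.263% at 20 d and 78.7 ± 1.42% at 50 d (SD, n = 3). In CPM, that is counts scaled by library size without any division by gene length, the mean share was 97.9%, 95.2% and 83.6%. Likewise, the level of the H3.2 gene Chr10.g14254 divided by that of the H3.3 gene Chr8.g55684, a pair chosen after their values were seen, was 0.0118 to 0.0236 at 0 d, 0.157 to 0.186 at 20 d and 0.705 to 0.894 at 50 d. Both genes have nearly the same model length, 618 and 613 bases. No p is given for these shares, since the genes were chosen with earlier results known.

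**Figure D4:**
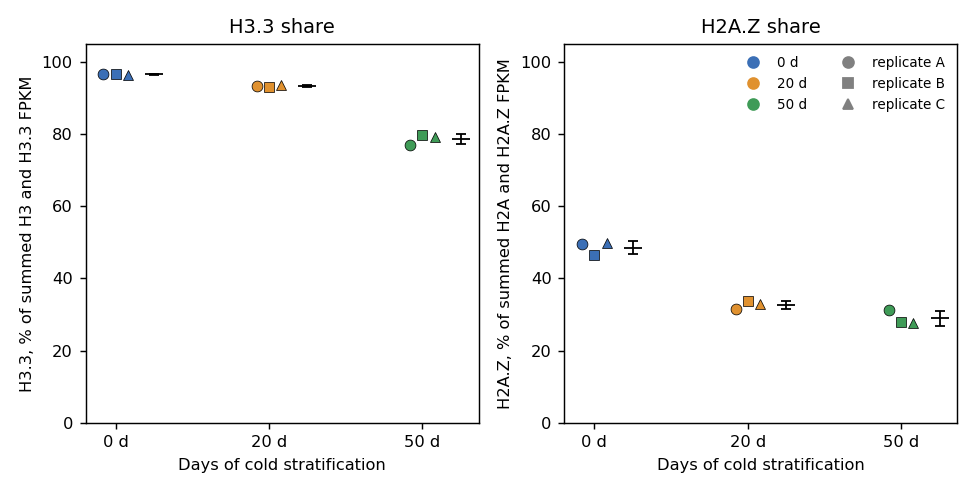
H3.3 as a percentage of the summed FPKM of H3 and H3.3 (left), and H2A.Z as a percentage of the summed FPKM of H2A and H2A.Z (right), in each of the 9 libraries. Black marks give the mean and SD of the 3 replicates. The H3.3 share was lowest at 50 d (77.0% to 79.6%), and the H2A.Z share was highest at 0 d (46.5% to 49.7%).

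Among the H2A genes, the variant H2A.Z fell as a class. All 4 H2A.Z genes were called lower from 0 d to 50 d, with a median log2 change of −2.38, and 1 of them was also called from 0 d to 20 d. Chr3.g17924 (chromosome 3, 28662189 to 28663888, plus strand) had 876, 518 and 768 FPKM at 0 d, 78.8, 171 and 100 at 20 d, and 85.9, 88.9 and 162 at 50 d. The lowest 0 d library was thus above every chilled one. It fell by 2.54 on the log2 scale by 20 d (SE 0.40, adjusted p 0.0014) and by 2.62 by 50 d (SE 0.40, adjusted p 0.000436), and both calls were kept in all 23 alternatives.

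Chr11.g13052 had a similar level at 0 d, 913, 498 and 781 FPKM, with 166, 369 and 208 at 20 d and 161, 174 and 281 at 50 d. Its fall by 1.77 to 50 d (SE 0.39) had an adjusted p of 0.00372. Chr2.g41440 had 281, 196 and 255 FPKM at 0 d and 29.6, 36.7 and 93.4 at 50 d, a change of −2.14 ± 0.48 (adjusted p 0.00414). Chr15.g03251 was much lower, with 10.1, 2.58 and 6.75 FPKM at 0 d and 0.846, 0.274 and 0.969 at 50 d, a change of −3.11 ± 0.68 (adjusted p 0.00342) that rests on 112 counts at 0 d and 15 at 50 d. Each of these 3 calls was lost with glmTreat and without 0 d A, 0 d C, 50 d A or 50 d B. That of Chr2.g41440 was also lost without 0 d B, and that of Chr11.g13052 with the replicate block. The call of Chr15.g03251 was also lost where both stages had to have a mean FPKM of 1 or more. Without 20 d B and 50 d C, all 4 were called lower at 50 d and 3 of them at 20 d, where 41.6% and 33.9% of all tested genes were called. From 20 d to 50 d none of the 4 was called, and none had an unadjusted p below 0.05 in edgeR, DESeq2 or limma.

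As a share of the summed FPKM of H2A and H2A.Z, H2A.Z transcripts made up 49.5%, 46.5% and 49.7% at 0 d. The share was 31.5%, 33.6% and 32.9% at 20 d and 31.3%, 27.9% and 27.8% at 50 d. All 0 d libraries were above all chilled ones, while the lowest 20 d value was only just above the highest of 50 d. Averaged over replicates, the H2A.Z share was 48.6 ± 1.81%, 32.7 ± 1.08% and 29.0 ± 2.00% in turn.

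The 16 tested canonical and H2AX genes split. The canonical Chr10.g13981, the highest of the class by its mean, had 539, 408 and 461 FPKM at 0 d, 99.2, 226 and 130 at 20 d, and 74.3, 114 and 222 at 50 d. It fell by 1.73 to 50 d (SE 0.43, adjusted p 0.00735), a call lost without any 1 of 6 libraries, the 3 of 0 d, 20 d C, 50 d A and 50 d B. This call was also lost with glmTreat and with the replicate block. Chr3.g18442 and Chr11.g12512, both named H2A.2 and given here because they were called, fell by 1.88 (adjusted p 0.000768) and 1.42 (adjusted p 0.00861). The first call was lost only with glmTreat. The second was lost in 8 alternatives, among them those without 0 d A, 0 d C, 20 d C or any 50 d library.

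In contrast, a pair of genes named H2A.1 rose late. Chr12.g35537 had 3.69, 1.46 and 6.69 FPKM at 0 d, 1.58, 2.72 and 1.87 at 20 d, and 21.5, 20.2 and 37.8 at 50 d. Chr4.g40471 had 6.56, 2.52 and 8.23 FPKM at 0 d, 1.12, 1.86 and 1.44 at 20 d, and 19.6, 15.8 and 33.2 at 50 d. In both genes every 50 d library lay above every earlier one. They rose by 3.66 ± 0.54 (adjusted p 0.00374) and 3.93 ± 0.50 (adjusted p 0.00178) from 20 d to 50 d, and by 2.81 ± 0.51 (0.00122) and 2.05 ± 0.45 (0.00368) from 0 d. The late calls of both were lost without 20 d A or without 20 d C, that of Chr12.g35537 also without 50 d B, and the call of Chr4.g40471 from 0 d was lost without 0 d A, 0 d B or 50 d C. Both late calls were also lost with the replicate block and in the fit of the 2 stages alone. With glmTreat, the late call of Chr12.g35537 and the call of Chr4.g40471 from 0 d were lost. Of H2AX, the form that is phosphorylated at DNA breaks, edgeR called none of the 6 tested genes in any comparison with all 9 libraries, with 2 lower from 0 d to 20 d, 1 higher from 20 d to 50 d and 0 from 0 d to 50 d at an unadjusted p below 0.05. In the same order, 12.4%, 1.66% and 26.6% of all tested genes were called, and 42.2%, 19.0% and 51.8% passed that p. The H2AX gene closest to a call was Chr3.g17750, with 2.77, 9.75 and 1.52 FPKM at 20 d and 15.9, 15.4 and 40.1 at 50 d, a change of 2.31 ± 0.62 with an adjusted p of 0.0525. DESeq2 called this gene higher from 20 d to 50 d, and so did edgeR without the low-count filter, with the length trend removed, and without 20 d B. In the fit without 20 d B and 50 d C, the H2A class had 2 genes called higher and 5 lower from 0 d to 50 d, 8 lower from 0 d to 20 d, and 3 higher from 20 d to 50 d. Of all tested genes, that fit called 41.6%, 33.9% and 3.1% in the same order.

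H2B, which pairs with H2A in the nucleosome, was lower after chilling in every tested gene by the fitted change from 0 d to 50 d (14 of 14, median −1.26), but only 3 passed the test. These 3 are 21.4% of those tested, against 26.6% of all tested genes. Chr3.g19675, named H2B.7, had 412, 284 and 327 FPKM at 0 d, 40.6, 113 and 55.6 at 20 d, and 21.1, 31.5 and 47.7 at 50 d. All 0 d libraries lay above all chilled ones, and the lowest 20 d library lay between those of 50 d. It fell by 2.20 to 20 d (SE 0.43, adjusted p 0.00394) and changed by −3.29 to 50 d (SE 0.45, adjusted p 0.000212). The second call was kept in all 23 alternatives, and the first was lost without any 1 library of 0 d, 20 d A or 20 d C. The first was also lost with glmTreat and with the replicate block. Contig2.g05583 had 257, 212 and 330 FPKM at 0 d and 29.1, 19.9 and 56.2 at 50 d, and fell by 2.87 (SE 0.57, adjusted p 0.00196), a call lost only without 50 d B.

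The most abundant H2B gene, Chr11.g10794, was not called. It had 794, 420 and 744 FPKM at 0 d, 268, 518 and 351 at 20 d, and 163, 206 and 448 at 50 d, with a change of −1.21 ± 0.43 (adjusted p 0.038). The third called gene, Chr11.g10784 (H2B.7), was named after its values were seen. It changed by −1.76 ± 0.46 with an adjusted p of 0.00939, and lost its call without any 1 of 6 libraries, the 3 of 0 d, 20 d C, 50 d A and 50 d B. Its call was also lost with glmTreat and with the replicate block. With 20 d B and 50 d C left out, 1 H2B gene was called higher and 13 lower at 20 d, and 10 of the 14 lower at 50 d, where 33.9% and 41.6% of all tested genes were called in either direction. By contrast with the rest, Chr11.g11192, named H2B.2, was highest at 20 d in A and C with 17.7 and 17.4 FPKM but had 5.23 in B, and 5.07 to 8.55 at 0 d and 1.79 to 5.27 at 50 d. It was not called.

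The H4 genes, which encode the least variable core histone, moved in different directions. By 50 d, 2 had risen, 3 had fallen and 9 of the 14 tested were not called, and the same 3 that fell were already called at 20 d. The calls were 35.7% of those tested at 50 d and 21.4% at 20 d, against 26.6% and 12.4% of all tested genes. Chr14.g49472 had 128, 82.1 and 151 FPKM at 0 d, 9.83, 16.9 and 8.56 at 20 d, and 12.0, 9.36 and 25.7 at 50 d. It fell by 3.27 to 20 d (SE 0.46, adjusted p 0.000791) and by 2.89 to 50 d (SE 0.45, adjusted p 0.00046), and both calls were kept in all 23 alternatives. Chr6.g51875 had 108, 62.3 and 95.6 FPKM at 0 d, 10.9, 20.9 and 9.72 at 20 d, and 21.5, 15.0 and 38.5 at 50 d. It fell by 2.59 (SE 0.44, adjusted p 0.00188) to 20 d and by 1.77 (SE 0.42, adjusted p 0.00553) to 50 d. Its first call was lost without 20 d A or 20 d C, and its second without 0 d A, 0 d C, 50 d A or 50 d B. Both were also lost with glmTreat and with the replicate block.

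Chr14.g49479 lies near Chr14.g49472 on chromosome 14, within 29.8 kb in all, and fell with it from a lower level. It had 10.3, 7.42 and 10.9 FPKM at 0 d, 1.90, 1.57 and 0.776 at 20 d, and 0.522, 0.473 and 1.67 at 50 d. The falls were 2.65 to 20 d (SE 0.58, adjusted p 0.00648) and 3.38 to 50 d (SE 0.60, adjusted p 0.00103), of which the first was lost without any 1 library of 0 d, 20 d A or 20 d C. The first was also lost with glmTreat and with the replicate block. The second was lost where both stages had to have a mean FPKM of 1 or more.

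The H4 genes that rose were hardly detected at the start. Chr1.g57358 had 0.435, 0.0835 and 0.787 FPKM at 0 d, 0, 0.0966 and 0.437 at 20 d, and 9.44, 7.19 and 20.4 at 50 d. This corresponds to 13, 6 and 441 counts over the 3 libraries of each stage. The fitted rises of 6.0 ± 0.90 from 20 d (adjusted p 0.00404) and 4.88 ± 0.83 from 0 d (0.000766) therefore rest on few early counts, and the first was lost without 0 d A, 20 d A or 20 d C. The first was also lost in the fit of the 2 stages alone. Both calls were lost where both stages had to have a mean FPKM of 1 or more. Chr7.g32562 had 1.45, 1.95 and 1.42 FPKM at 0 d, 0.952, 3.87 and 1.36 at 20 d, and 9.64, 9.86 and 31.8 at 50 d. It rose by 3.44 ± 0.65 from 0 d (adjusted p 0.00142), a call lost without 0 d A or 0 d C, and its rise from 20 d had an adjusted p of 0.0172.

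The most abundant H4 gene, Chr4.g39747, had 190, 137 and 231 FPKM at 0 d, 186, 565 and 198 at 20 d, and 224, 354 and 635 at 50 d. Neighbouring stages overlapped, and its change from 0 d to 50 d of 1.17 ± 0.49 had an adjusted p of 0.0716. The H4 gene of the highest level was thus not among those that were called. Without 20 d B and 50 d C, 2 H4 genes were called higher and 6 lower from 0 d to 50 d, and 8 lower from 0 d to 20 d. That fit called 41.6% and 33.9% of all tested genes in these comparisons.

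**Figure D5:**
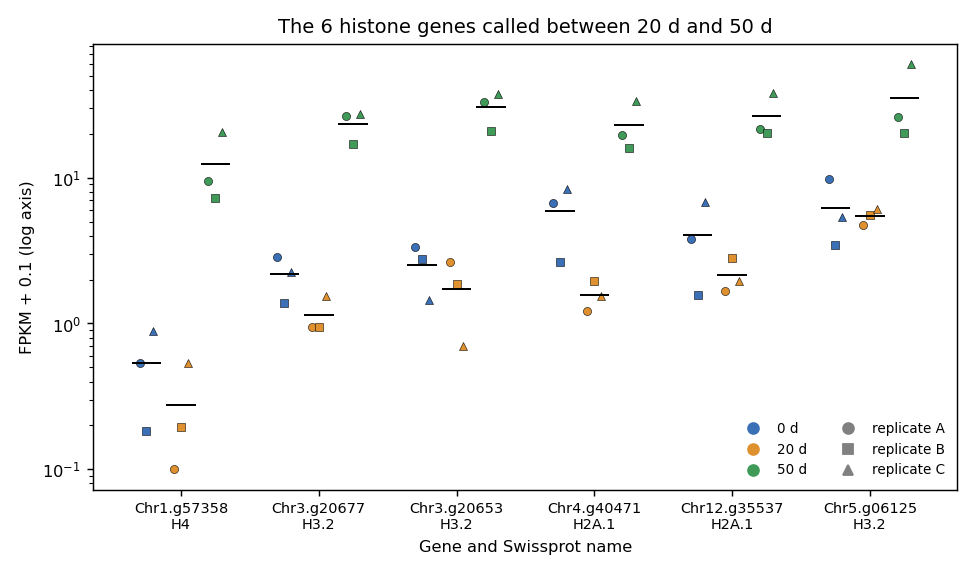
The 6 histone genes called between 20 d and 50 d (3 H3.2, 2 H2A.1 and 1 H4), as FPKM + 0.1 on a log axis in each library. Colours are the stages, symbols the replicates and black bars the means. In all 6 the 3 libraries of 50 d lie above the 6 earlier libraries.

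Linker histone H1 compacts the chromatin fibre between nucleosomes, and its summed level varied least between the stage means. None of the 8 H1 genes was called by edgeR in any comparison. Of all tested genes, 12.4% were called from 0 d to 20 d, 1.66% from 20 d to 50 d and 26.6% from 0 d to 50 d. At an unadjusted p below 0.05, which 51.8% of all tested genes passed from 0 d to 50 d and 42.2% from 0 d to 20 d, 3 and 2 H1 genes were higher, and from 20 d to 50 d 0. DESeq2 called 1 higher from 0 d to 20 d and 0 otherwise, and limma called 0. Without 20 d B and 50 d C edgeR called 1 higher from 0 d to 20 d, and 1 higher and 1 lower from 0 d to 50 d, where 33.9% and 41.6% of all tested genes were called. The most abundant, Chr2.g42238, had 366, 232 and 361 FPKM at 0 d, 169, 333 and 182 at 20 d, and 128, 157 and 367 at 50 d. The values of the 3 stages overlapped, and its change from 0 d to 50 d was −0.50 ± 0.43 (adjusted p 0.362). The H1 gene nearest to a call was Chr14.g50462, with 20.8, 14.8 and 24.2 FPKM at 0 d and 50.5, 33.7 and 62.7 at 20 d, a change of 1.38 ± 0.34 with an adjusted p of 0.0124.

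Of the 2 genes for the centromeric H3 variant, named after HTR12 of Arabidopsis, 1 was tested. Chr3.g19227 had 47.4, 29.3 and 29.8 FPKM at 0 d, 6.84, 21.1 and 10.6 at 20 d, and 9.65, 14.5 and 25.8 at 50 d. The 0 d libraries were above all chilled ones, but the change to 20 d of −1.38 ± 0.47 had an adjusted p of 0.0445 and that to 50 d of −1.04 ± 0.46 one of 0.0896. It was not called by edgeR, DESeq2 or limma, with an unadjusted p below 0.05 in each for both changes. Without 20 d B and 50 d C it was called lower in both.

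Several histone genes lie close together. With genes joined where at most 200 kb apart, 34 of the 82 histones fell into 12 groups. On chromosome 11 (9685931 to 9860677), on chromosome 3 (7231530 to 7284104) and on Contig2 (444 to 158452), a group of 5 holds 1 H4, 3 H2B and 1 H2A gene each. Within each of these groups the H2A gene had a higher fitted change from 0 d to 50 d (0.40, 0.32 and 0.58) than all its H2B neighbours, which ranged from −1.76 to −1.21, from −1.38 to −0.46 and from −2.87 to −0.70. None of these H2A genes was called, the difference from the H2B genes was not tested, and the first 2 H2A changes were below 0 without 50 d C. Neighbours named alike did move together in 2 groups, the H4 genes Chr14.g49472 and Chr14.g49479, which both fell, and the H3.2 genes Chr3.g20653 and Chr3.g20677, within 197 kb, which both rose. Copies with near-identical sequence can share reads, so the split of counts between such neighbours is uncertain. Whether the counting used strand is also not stated.

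The 30 genes matched through a histone name are named after enzymes that act on H3 or after their relatives. Their activity was not tested. They comprise 14 genes named Increased DNA methylation 1, an Arabidopsis histone acetyltransferase needed for active DNA demethylation, 14 of the SUVH family of H3 lysine-9 methyltransferases and relatives, and 2 of ASHH2, an H3 lysine-36 methyltransferase. Of these, 24 were tested. By edgeR 0 were called from 0 d to 20 d and from 20 d to 50 d, with 8 higher and 1 higher at an unadjusted p below 0.05, DESeq2 0 and 1, and limma 0 and 0. Of all tested genes, edgeR called 12.4% and 1.66% in these comparisons, and 42.2% and 19.0% passed that p. Over the whole period 1 was called (4.17%, against 26.6% of all tested genes). The median log2 change over the 24 was 1.05, against 0.16 over all tested genes. These genes are long, with a median model length of 3045 bases, and went against the histones in 20 d B and 50 d C. The summed level of the 30 was 187, 39.9 and 166 FPKM in 20 d A, B and C, and 174, 138 and 64.5 in 50 d A, B and C, against 61.3 to 90.1 at 0 d. Without 20 d B and 50 d C, 16 of the 24 were called higher from 0 d to 20 d and 16 from 0 d to 50 d, where 33.9% and 41.6% of all tested genes were called in either direction, and 0 from 20 d to 50 d.

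The called gene, Chr13.g23352 (SUVH4, a methyltransferase of H3 lysine 9), had no count at 0 d, 0, 0.0386 and 0.174 FPKM at 20 d and 1.72, 0.702 and 0.752 at 50 d. Against a floor of 3 counts over the stage it was at least 28.8-fold higher at 50 d. The edgeR test gave an adjusted p of 0.00182. Only the 50 d mean of 1.06 FPKM met the FPKM limit, and of its libraries only 50 d A lay above 1. The call was lost without 50 d A and where both stages had to have a mean FPKM of 1 or more.

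Genes for proteins that handle histones were compared as a list. Histone chaperones escort newly made or evicted histones, among them ASF1 and CAF-1 for H3 with H4, HIRA for H3.3, and NAP1 and FACT for H2A with H2B. Of 36 such genes, 32 were tested. Up to 20 d 2 rose and 1 fell (9.38% of those tested, against 12.4% of all tested genes), and the median log2 change was 0.65, against 0.15 over all tested genes. From 20 d to 50 d edgeR called 0, with 1 higher and 5 lower at an unadjusted p below 0.05, while DESeq2 called 1 lower and limma 0. Over 50 d 1 rose and 1 fell (6.25%, against 26.6% of all tested genes), with a median of 0.52. This last median was −0.13 with the length trend of all libraries removed. In the absence of 20 d B and 50 d C, 33 could be tested, of which 11 were called higher and 1 lower from 0 d to 20 d, and 7 higher and 2 lower from 0 d to 50 d. That fit called 33.9% and 41.6% of all tested genes.

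The gene that fell was Chr16.g31175, named ASF1B, with 18.3, 8.22 and 8.08 FPKM at 0 d, 1.40, 1.09 and 1.15 at 20 d, and 0.928, 0.902 and 1.59 at 50 d. It fell by 3.15 to 20 d (SE 0.45, adjusted p 0.000837) and fell by 3.27 to 50 d (SE 0.45, adjusted p 0.000221), and both calls were kept in all 23 alternatives. The other ASF1B gene given by its level, Chr9.g44595, had 38.0, 24.8 and 32.5 FPKM at 0 d and 13.5, 17.6 and 28.4 at 50 d and was not called. HIRA (Chr10.g16997) had 6.66, 7.99 and 6.18 FPKM at 0 d and 9.84, 9.17 and 6.0 at 50 d, a change of 0.33 ± 0.44 (adjusted p 0.571). NAP1-related protein 1 (Chr14.g50062), the highest chaperone gene, had 158, 208 and 264 FPKM at 0 d, 326, 479 and 368 at 20 d, and 208, 247 and 323 at 50 d. All its 20 d libraries were the highest, but the change from 0 d to 20 d of 0.98 ± 0.32 had an adjusted p of 0.037.

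Genes of DNA replication, which mark cells in S phase, were called about as often as all tested genes over the whole period. Of 54 genes for PCNA, MCM2 to MCM7, ribonucleotide reductase, replication protein A and DNA polymerases alpha, delta and epsilon, 47 were tested. Up to 20 d 2 rose and 4 fell, from 20 d to 50 d 2 rose and 0 fell (4 lower at an unadjusted p below 0.05, with 2 called lower by DESeq2 and 0 by limma), and from 0 d to 50 d 8 rose and 5 fell. These counts are 12.8%, 4.26% and 27.7% of those tested, against 12.4%, 1.66% and 26.6% of all tested genes. Without 20 d B and 50 d C, 48 could be tested, of which 8 were called higher and 8 lower from 0 d to 20 d, 3 higher from 20 d to 50 d, and 20 higher and 7 lower from 0 d to 50 d. Of all tested genes, that fit called 33.9%, 3.1% and 41.6%. The most abundant, the PCNA gene Chr3.g20225 (the clamp that holds polymerases on DNA), had 1073, 578 and 816 FPKM at 0 d, 76.4, 133 and 91.9 at 20 d, and 35.4, 34.8 and 43.6 at 50 d. The stages did not overlap, and it fell by 2.95 to 20 d (SE 0.35, adjusted p 0.000368) and by 4.38 to 50 d (SE 0.38, adjusted p 2.01e-05).

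Of the replication genes that rose, Chr15.g01400 was called higher than at 0 d at both 20 d and 50 d. Both calls were kept in all 23 alternatives. Over these settings its log2 change was 2.47 to 3.33 at 20 d and 2.31 to 3.24 at 50 d. The DNA polymerase alpha gene Contig41.g59303, named because it was called, had 0.536, 0.343 and 0.364 FPKM at 0 d, 0.915, 0.159 and 0.503 at 20 d, and 5.21, 5.03 and 3.83 at 50 d. It rose by 3.56 ± 0.56 from 0 d (adjusted p 0.000511) and by 3.12 ± 0.55 from 20 d (adjusted p 0.00752). The second call was lost without any 1 library other than 20 d B and 50 d C. It was also lost with glmTreat, with the replicate block and in the fit of the 2 stages alone. Both calls were lost where both stages had to have a mean FPKM of 1 or more. The list's summed level was 1029 to 1655 FPKM at 0 d, 423 to 586 at 20 d and 412 to 468 at 50 d. The PCNA gene Chr3.g20225 alone held 578 to 1073 FPKM of this at 0 d and 34.8 to 43.6 at 50 d. By gene, 29 of the 47 tested were fitted higher from 0 d to 50 d and 18 lower. Their median log2 change was 0.70, against 0.16 over all tested genes. Higher and lower were 12 and 1 MCM genes, 10 and 1 polymerase genes and 3 and 3 ribonucleotide reductase genes. For replication protein A they were 4 and 10, and for PCNA 0 and 3. The list's part in the histone changes was not tested.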

How the data were processed

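Gene counts and FPKM of 9 libraries were used as the authors deposited them. The deposited counts are whole numbers per gene, not normalized, and the deposited FPKM values are scaled by the authors for gene length and library size. According to the labels and the study's methods, CTAB was used to extract RNA, an NEB Next Ultra kit to build libraries, and reads were mapped with HISAT2 to the P. betuleafolia genome. No assembly name, counting tool or tool version was stated. The 15 columns of the authors' own fold changes, p-values and adjusted p-values were not used.

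Groups came from the sample labels. The counts were fitted with edgeR 4.0.16 in R 4.3.3 (TMM, filterByExpr by stage, quasi-likelihood test, all 9 libraries, stage as the only factor). P-values were adjusted over all 28339 tested genes in each of 3 comparisons. Alternatives (22 planned, 1 added) used DESeq2 1.42.0, limma 3.58.1, other filters and limits, each library left out, a replicate block, and subtraction of a loess trend on gene length (span 0.5). Summaries used Python 3.11.15 with pandas 2.3.3. The code was first tested on simulated data. A missed threshold does not show that a gene stayed the same. The study calls the replicates biological, and p-values measure the spread between these seed bulks.

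The members and lists were chosen with earlier results of these data known. Named by rule were the gene of highest mean FPKM in each histone class, the 6 largest called rises and falls per comparison without overlap of replicates, every histone called from 20 d to 50 d, every tested gene of a class with at most 4, and the highest gene of each protein in the other lists. All other genes named were chosen after their values were seen. The marker list had no match for 2S albumin. Raw reads and other measurements were not used here.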

Additional observations from a re-analysis of the deposited data

How the results depend on the processing

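The number of histones called depended on the setting, most from 0 d to 20 d. In that comparison 5 were called, and the number was 23 with DESeq2, 16 without a low-count filter, 27 at an adjusted p of at most 0.05, 2 with glmTreat, 12 and 10 with limma-trend on log2(FPKM + 1) and log2(FPKM + 0.1), 19 and 29 with the length trend removed over all libraries and within stages, 2 to 28 with 1 library left out, and 41 without 20 d B and 50 d C. Of all tested genes, 12.4% were called in the main fit, 25.7% at the looser limit and 3.34% with glmTreat. The share was 12.6% and 12.8% with limma-trend, and 19.2% and 21.9% with the length trend removed. It was 4.21% to 23.7% with 1 library left out and 33.9% without both. DESeq2 called 10.4% of all genes of the table, tested or not. Without a low-count filter 11% of all genes with a count were called. From 20 d to 50 d the 6 calls became 0 in a fit of only these stages, 1 to 10 with 1 library left out, and 11 without both libraries. Of all tested genes, these fits called 0%, 0.255% to 2.03% and 3.1%, against 1.66% in the main fit. From 0 d to 50 d the 24 calls became 13 with glmTreat, 13 to 33 with 1 library left out and 42 without both. In turn, 13.8%, 16.6% to 34% and 41.6% of all tested genes were called, against 26.6% in the main fit. No called histone changed direction in any alternative. Removing the length trend over all libraries moved the median of all tested genes from 0.15 to −0.06 from 0 d to 20 d and from 0.16 to −0.16 from 0 d to 50 d. The cause of these differences was not tested.

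Whether the replicate letters pair the libraries could not be decided. Correlations of the deviations of same-lettered libraries from their stage means ranged from −0.56 to 0.55. Those of differently lettered libraries ranged from −0.62 to 0.72. The highest was between 20 d B and 50 d C, which stood apart in their stages, and such libraries weigh on all these values. With the letter as a replicate block, 2, 2 and 19 histones were called in the 3 comparisons.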
